A study of Mus musculus with 12 samples.

Results

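The 10 genes described here encode metallothioneins and enzymes of antioxidant defence: Mt1, Mt2, Hmox1, Nqo1, Sod1, Sod2, Sod3, Gclc, Gclm and Txnrd1. They were chosen by symbol from the 23420 genes of the table that covers all libraries, and each of the 10 was found and passed the filter on low counts, as did 15306 genes in all. RNA of inguinal white adipose tissue (iWAT), the fat pad in which beige adipocytes form upon cold, was sequenced from 12 C57BL/6 male mice of 10 weeks, with 3 mice in each of 4 groups. All 12 mice carried HIF2a loxP/loxP alleles. Mice labelled HIF2α AKO also carried Adipoq-Cre, a recombinase driven by the adiponectin promoter, which is active in adipocytes, and WT mice carried no Cre, so that Cre and the floxed deletion cannot be told apart. Each genotype was kept at thermoneutrality (TN, 30 °C for 1 week) or in the cold (4 to 6 °C for 3 days), which gave the groups TN WT, TN AKO, cold WT and cold AKO. Temperature and length of exposure changed together and cannot be told apart, and changes upon cold are those of cold against TN.

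Metallothioneins are small cysteine-rich proteins that bind zinc and copper, and their genes are switched on through metal response elements (MREs) by the zinc-sensing factor MTF1, and also by glucocorticoids. Superoxide dismutases turn superoxide into hydrogen peroxide, which catalase removes. Peroxiredoxins and glutathione peroxidases also remove it, with electrons from thioredoxin and glutathione. Many genes of this system, Hmox1, Nqo1, Gclc, Gclm and Txnrd1 among them, are targets of NRF2 (Nfe2l2), which KEAP1 holds back and which competes with BACH1 for antioxidant response elements (AREs). In thermogenic fat, mitochondria that respire at a high rate are a source of superoxide.

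Library totals, counted over genes, ran from 22368316 to 35204631, and the common biological coefficient of variation was 0.202. Values are CPM (counts scaled to the library size after TMM normalization), given as mean ± SD of 3 mice. Epas1, which encodes HIF2α, was not lower in libraries labelled AKO: its CPM at TN was 348 ± 53.8 (SD, n = 3) in AKO and 360.0 ± 76.7 (SD, n = 3) in WT. Upon cold it was 826 ± 138 (SD, n = 3) in AKO and 627 ± 100.6 (SD, n = 3) in WT. Gene-level counts cannot tell a transcript without the floxed exons from a whole one, and loss of those exons was not tested. The genotypes are therefore given as labelled, and AKO stands for libraries labelled HIF2α AKO throughout. A set of 12 skeletal muscle genes summed to 1350.1 CPM in cold AKO replicate 1 and 1631 CPM in TN AKO replicate 2, against 37.4 to 113 CPM in the 10 other libraries. Epithelial genes summed to 199.9 CPM in TN WT replicate 3 and to at most 10.3 CPM elsewhere. The thermogenic genes that mark cold-exposed iWAT separated the temperatures, and Ucp1 rose from 0.432 ± 0.222 CPM (SD, n = 3) in TN WT to 2638 ± 752 CPM (SD, n = 3) in cold WT.

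Mt1 and Mt2 lie next to each other on mouse chromosome 8, at chr8:94179082-94180327 and chr8:94172664-94173568 in GRCm38, both on the plus strand. Because their responses to cold are set side by side below, the 250 bases before the start of each RefSeq transcript are shown, as RefSeq gives them in GRCm38.p6, at chr8:94178839-94179088 for Mt1 and chr8:94172368-94172617 for Mt2, read 5′ to 3′. Capitals mark matches to the MRE core, searched as TGCACNC or TGCGCNC on both strands.
Mt1: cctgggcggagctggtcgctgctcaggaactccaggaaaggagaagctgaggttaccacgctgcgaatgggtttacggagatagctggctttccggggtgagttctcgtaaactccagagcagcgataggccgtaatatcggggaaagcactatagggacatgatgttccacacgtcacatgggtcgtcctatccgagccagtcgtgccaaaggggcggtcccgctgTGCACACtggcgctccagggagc
Mt2: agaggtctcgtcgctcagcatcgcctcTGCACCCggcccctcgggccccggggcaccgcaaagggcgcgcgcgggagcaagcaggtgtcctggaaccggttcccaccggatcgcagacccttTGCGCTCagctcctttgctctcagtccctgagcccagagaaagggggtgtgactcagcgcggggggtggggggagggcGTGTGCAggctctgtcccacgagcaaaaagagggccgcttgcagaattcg
The Mt1 stretch held 1 match, 23 bases before the start, and the Mt2 stretch held 3, whose first bases lay 223, 128 and 50 bases before it. Within the 50 bases after the start, Mt1 had 2 further matches and Mt2 had 1. The 2 stretches are not placed alike. The gene start given above lies inside the stretch for Mt1 (94179082) and past its end for Mt2 (94172664). The counts depend on the start used and do not rank the 2 genes by MREs. The Mt2 match nearest before the start overlaps a match to GCGTG. Of 32851 mouse promoter windows of 300 bases (250 before the start and 50 after it), 25.7% held an MRE core. RefSeq windows were found for 7 of the 10 genes, as 9 windows, of which 3 held an MRE core (Mt1, Mt2 and Gclm). The ARE core, searched as TGACNNNGC, was found in 4 of the 9 windows and in 12.4% of all windows, and the hypoxia response core, searched as ACGTG or GCGTG, in 8 of the 9 and in 43.8% of all. These matches describe the letters alone.

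Upon cold exposure, 6 of the 10 genes rose in WT iWAT. They were Sod1, Sod2 and Sod3, Txnrd1, Gclm and Mt1, with changes from 0.51 to 1.91 on the log2 scale, and the groups did not overlap for these 6 genes. The calls of Sod2 and Txnrd1 held when each library was left out in turn. They were the 2 calls left without cold WT replicate 3, TN WT replicate 1 or TN WT replicate 2. In these fits calls over all genes also fell, from 3259 to 1469, 1810 and 1381, in that order. Mt2, Hmox1, Nqo1 and Gclc did not pass the test, and 0 of the 10 genes fell by edgeR at an adjusted p under 0.05. None of the 10 was lower at an unadjusted p under 0.05 either, and none fell by DESeq2 or voom. Of all 15306 genes tested, 15.6% were called higher and 5.68% lower in this comparison, and 42.0% had groups that did not overlap. The median log2 fold change of the 10 genes was 0.64, against -0.03 over all genes tested.

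In AKO iWAT, 5 of the 10 genes rose upon cold (Sod1, Sod2, Sod3, Txnrd1 and Mt1) and 1 fell (Hmox1). Without cold AKO replicate 1 or TN AKO replicate 1, the rises of Sod2 and Txnrd1 were the 2 calls left. Calls over all genes fell from 4138 to 1613 and 1735 in these fits. Over all genes, 15.6% were called higher and 11.5% lower. The groups of 7 of the 10 genes did not overlap, Gclm being the seventh, against 50.5% of all genes. The median log2 fold change of the 10 genes was 0.59, against -0.05 over all genes tested.

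**Figure D1:**
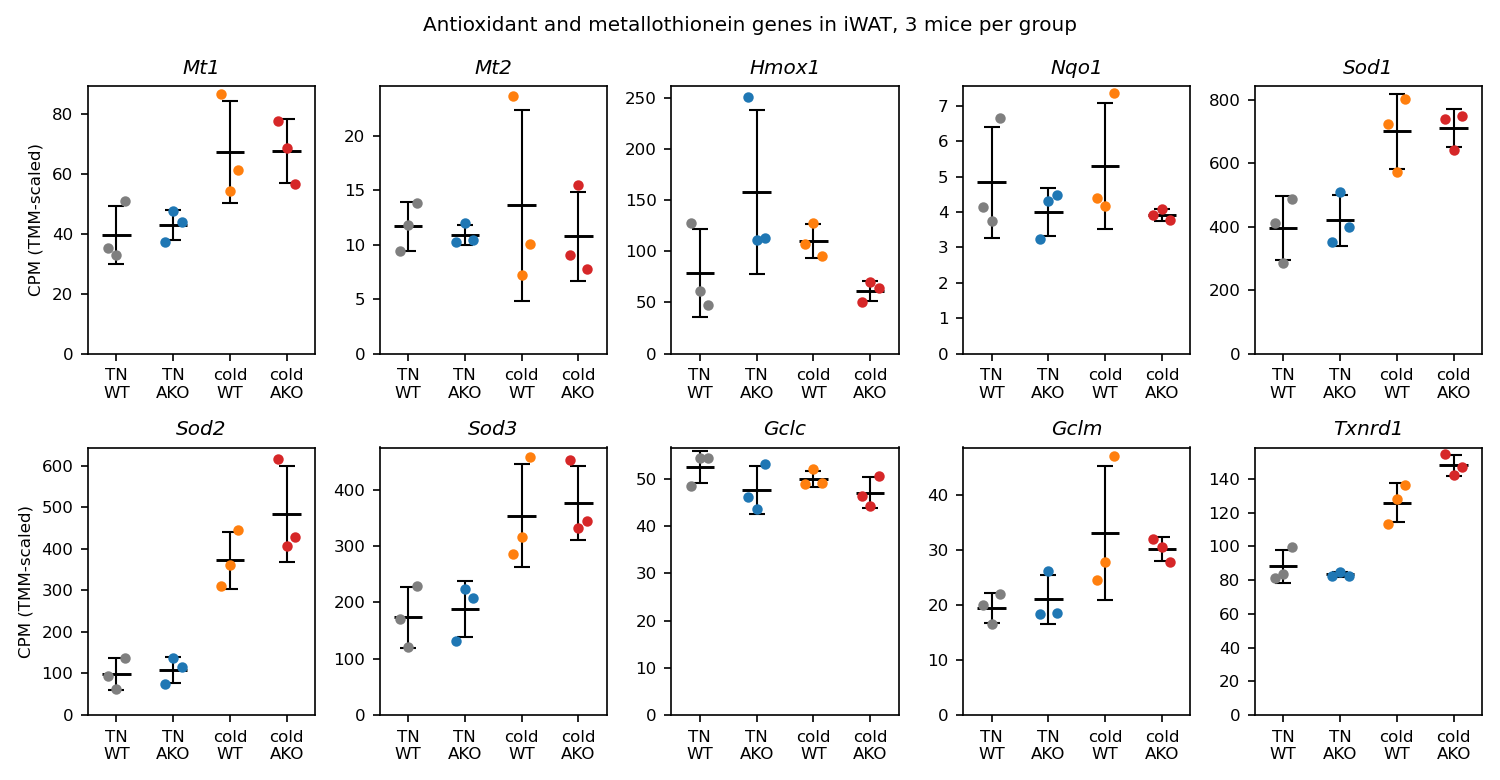
CPM of each of the 10 genes (vertical axes, each from 0) in the 4 groups, with 1 point per mouse and a bar and whiskers for the mean ± SD of 3 mice. For Sod1, Sod2, Sod3, Txnrd1, Gclm and Mt1, the cold points lay above the TN points of the same labelled genotype. Hmox1 spread from 47.2 to 251 CPM and was lowest as a group in cold AKO.

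Sod2, the manganese superoxide dismutase of the mitochondrial matrix, changed most among the 10 genes. It lies at chr17:13006846-13040063. Its CPM was 95.0, 62.9 and 138 in the TN WT mice and 310.4, 360.5 and 445 in the cold WT mice. In AKO mice it was 73.8, 137 and 116 at TN and 616, 406 and 429 upon cold. The lowest cold value was 2.25 times the highest TN value, and the highest of all, 616 CPM, came from cold AKO replicate 1, a library with muscle transcripts. Sod2 rose by 1.91 on the log2 scale in WT (standard error 0.31, adjusted p = 0.00247) and by 2.15 in AKO (standard error 0.31, adjusted p = 0.00101), in the quasi-likelihood test of edgeR with p-values adjusted by Benjamini-Hochberg over all genes. With each library left out in turn, the change ran from 1.66 to 2.24 in WT and from 1.94 to 2.35 in AKO, past the limit each time.

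Sod1, the copper and zinc enzyme of the cytosol (chr16:90220754-90226329), was the most abundant of the 10 genes per length of exon. At TN it was at 412, 287 and 487 CPM in WT and 352, 508 and 400.2 CPM in AKO. Upon cold it was at 724, 573 and 802 CPM in WT and 741, 640.4 and 749 CPM in AKO, so that every cold library was above every TN library. It rose by 0.82 on the log2 scale in WT (standard error 0.21, adjusted p = 0.0200 by edgeR) and by 0.76 in AKO (standard error 0.21, adjusted p = 0.0242). The call in WT was lost without cold WT replicate 3 (0.72, adjusted p = 0.0771), TN WT replicate 1 (0.86, 0.0542) or TN WT replicate 2 (0.62, 0.0728). The call in AKO was lost without cold AKO replicate 1 (0.73, 0.0820) or 3 (0.72, 0.0552), TN AKO replicate 1 (0.64, 0.0996) or 3 (0.72, 0.0736).

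Sod3, the secreted extracellular enzyme (chr5:52363791-52371418), was at 171, 121 and 228 CPM in TN WT and 286, 317 and 458 CPM in cold WT. Its AKO values were 131, 224 and 208 CPM at TN and 453, 332 and 345 CPM upon cold. Its groups did not overlap in either genotype. By edgeR, Sod3 rose by 1.03 on the log2 scale in WT (standard error 0.27, adjusted p = 0.0238) and by 1.00 in AKO (standard error 0.27, adjusted p = 0.0227). The call was lost in WT without cold WT replicate 3 (0.80, adjusted p = 0.101), TN WT replicate 1 (1.02, 0.0700) or TN WT replicate 2 (0.81, 0.0931), and in AKO without cold AKO replicate 1 (0.85, 0.0937) or TN AKO replicate 1 (0.80, 0.0896).

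The ratio of Sod2 to Sod1 CPM lay between 0.210 and 0.289 in the 6 TN libraries and between 0.429 and 0.832 in the 6 cold libraries, so that the temperatures did not overlap. Per kilobase of merged exons, the mean level of Sod1 in cold WT was 176 CPM, that of Sod3 94.6 CPM and that of Sod2 37.2 CPM, and the exons of Sod2 merge to 10008 bases over all its isoforms. That order per kilobase was the same in the other 3 groups. By CPM alone, Sod2 was above Sod3 in cold WT (372 against 354) and in cold AKO (484 against 376). At TN, Sod2 was below Sod3 by CPM in both genotypes.

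Txnrd1, the cytosolic thioredoxin reductase that hands electrons from NADPH to thioredoxin (chr10:82833951-82897712), had the smallest standard error among the genes that rose. It was at 81.2, 83.8 and 99.5 CPM in TN WT and 113, 128 and 137 CPM in cold WT. The AKO libraries were at 82.6, 85.0 and 82.7 CPM at TN and 155, 142 and 147 CPM upon cold, and the cold AKO libraries stood above all others. Txnrd1 rose by 0.51 on the log2 scale in WT (standard error 0.10, adjusted p = 0.00564) and by 0.83 in AKO (standard error 0.10, adjusted p = 0.000384) by edgeR, and neither call was lost without any 1 library. With library sizes in place of TMM scaling, which lowered the median of all genes by 0.30 in WT and by 0.27 in AKO on the log2 scale, the change in WT was 0.22 (adjusted p = 0.0878).

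Gclc and Gclm encode the catalytic and the modifier subunit of glutamate-cysteine ligase, the enzyme of the rate-limiting step of glutathione synthesis, at chr9:77754535-77794485 and chr3:122245557-122270732. Gclm was at 20.1, 16.6 and 22.0 CPM in TN WT and 24.6, 27.9 and 47.2 CPM in cold WT, without overlap. Among AKO mice it was at 18.3, 26.2 and 18.6 CPM at TN and 32.1, 30.7 and 27.8 CPM upon cold, also without overlap. Gclm rose in WT, by 0.77 on the log2 scale (standard error 0.23, adjusted p = 0.0380), and its change in AKO was 0.52 (standard error 0.23, adjusted p = 0.110) by edgeR. The changes were not shown to differ between genotypes, with an interaction of -0.25 (standard error 0.32, unadjusted p = 0.461). The WT call was lost without cold WT replicate 3, TN WT replicate 1 or TN WT replicate 2. The change was then 0.43 (adjusted p = 0.15), 0.79 (0.0858) or 0.64 (0.140), in that order. Exons of Gclm overlap those of Gm17494 on the opposite strand and of the pseudogene Gm6061, and the strand setting of the counting is not given in the sources used here.

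Gclc lay between 43.5 and 54.5 CPM in all 12 libraries, and its groups overlapped. Its log2 fold change upon cold was -0.07 (standard error 0.09, adjusted p = 0.585) in WT and -0.02 (standard error 0.09, adjusted p = 0.913) in AKO by edgeR. With library sizes in place of TMM scaling, Gclc was called lower in WT (-0.37, adjusted p = 0.0422), beside the downward shift of all genes by 0.30. The ratio of Gclc to Gclm CPM was 1.66 to 3.29 over the TN libraries and 1.04 to 1.99 over the cold ones, which overlap.

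Of the metallothioneins, Mt1 rose and Mt2 did not pass the test. Mt1 was at 35.3, 32.7 and 50.8 CPM in TN WT and 86.4, 54.2 and 61.3 CPM in cold WT. For AKO mice the values were 37.3, 47.4 and 43.8 CPM at TN and 77.6, 68.5 and 56.5 CPM upon cold, so that every cold library was above every TN library. Mt1 rose by 0.76 on the log2 scale in WT (standard error 0.21, adjusted p = 0.0259) and by 0.66 in AKO (standard error 0.21, adjusted p = 0.0398) by edgeR. Both calls were near the limit. In WT, 4 of the 6 fits without 1 library lost it: the change was 0.54 (adjusted p = 0.0829) without cold WT replicate 1, 0.83 (0.0532) without cold WT replicate 3, 0.69 (0.0862) without TN WT replicate 1 and 0.63 (0.108) without TN WT replicate 2. In AKO, 4 of 6 lost it as well, with 0.54 (0.147) without cold AKO replicate 1, 0.65 (0.0879) without cold AKO replicate 2, 0.56 (0.142) without TN AKO replicate 1 and 0.67 (0.0871) without TN AKO replicate 3. With library sizes in place of TMM scaling the change was 0.48 (adjusted p = 0.0594) in WT and 0.39 (adjusted p = 0.109) in AKO.

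Mt2 was at 9.39, 11.8 and 13.8 CPM in TN WT and at 23.6, 7.22 and 10.0 CPM in cold WT. Its AKO values were 10.2, 12.0 and 10.4 CPM at TN and 9.05, 15.4 and 7.77 CPM upon cold. The cold libraries spread on both sides of the TN libraries, and the highest value came from cold WT replicate 1, which was also the highest for Mt1. In WT its change on the log2 scale was 0.22 (standard error 0.39, adjusted p = 0.687), and -0.43 without cold WT replicate 1. In AKO it was -0.02 (standard error 0.39, adjusted p = 0.980) by edgeR. The ratio of Mt1 to Mt2 CPM was 2.78 to 4.21 in the TN libraries and 3.66 to 8.58 in the cold ones. Exons of Mt2 overlap the antisense gene Gm45774, whose reads cannot be told apart from those of Mt2 without strand.

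Nqo1, which reduces quinones (chr8:107388225-107403206, minus strand), was weakly expressed, at 3.23 to 7.36 CPM over the 12 libraries. Its log2 fold change upon cold was 0.14 (standard error 0.27, adjusted p = 0.726) in WT and -0.03 (standard error 0.27, adjusted p = 0.944) in AKO by edgeR. The highest value of each WT group came from replicate 3, and without cold WT replicate 3 the change in WT was -0.17.

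**Figure D2:**
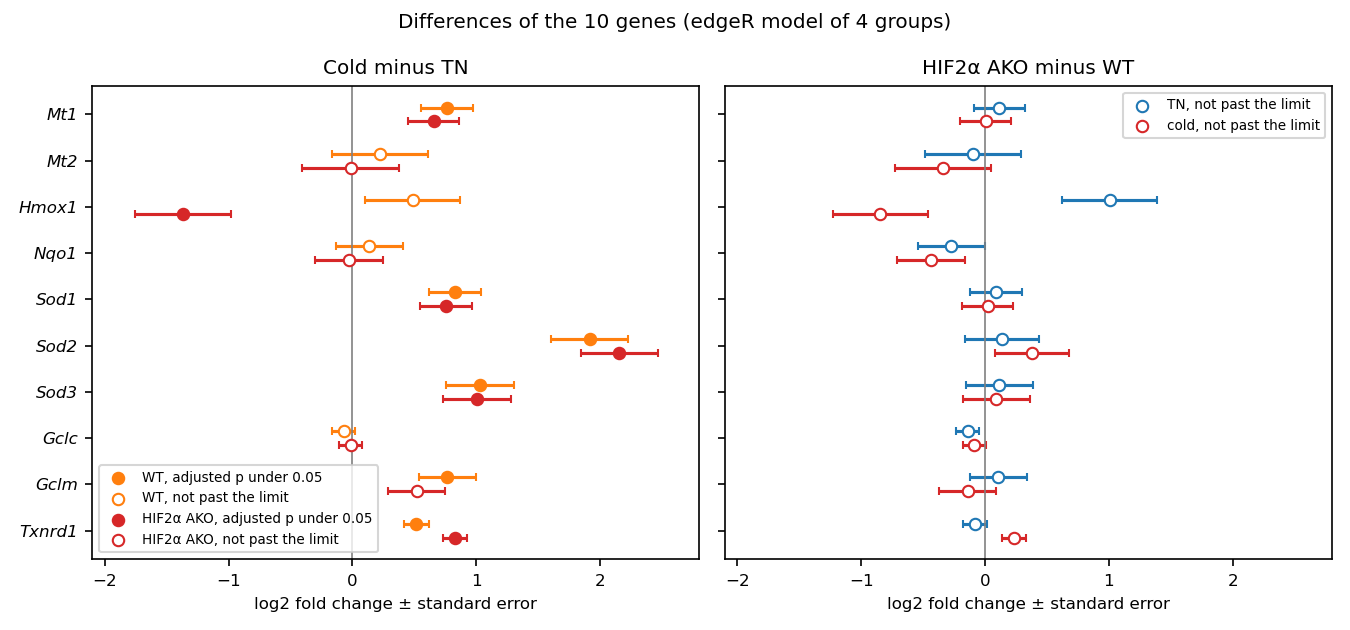
Log2 fold changes (horizontal axes) with standard errors for the 10 genes, on the left cold minus TN in each genotype and on the right AKO minus WT at each temperature. Filled points had an adjusted p under 0.05 by edgeR, which holds for 6 genes in WT and 6 in AKO on the left and for none on the right.

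Hmox1, the inducible heme oxygenase that splits heme into biliverdin, carbon monoxide and iron, was the exception in direction. It lies at chr8:75093621-75100589. Its CPM was 127, 61.4 and 47.2 in TN WT and 107, 128 and 95.1 in cold WT, with overlap. In AKO mice it was 251, 111 and 113 at TN and 50.2, 69.4 and 63.8 upon cold, without overlap. The TN AKO group was the highest and the most spread, with a mean of 158 ± 80.1 (SD, n = 3), and its replicate 1 was 2.22 times as high as the next TN AKO library. The log2 fold change upon cold was 0.48 (standard error 0.38, adjusted p = 0.355) in WT and -1.37 (standard error 0.39, adjusted p = 0.0260) in AKO by edgeR. The fall in AKO was -0.87 (adjusted p = 0.119) without TN AKO replicate 1. It also missed the limit without cold AKO replicate 1 (-1.25, 0.103), 2 (-1.47, 0.0542) or 3 (-1.40, 0.0549), and without both libraries that held muscle transcripts (-1.45, 0.0813). In these fits calls over all genes fell as well, from 4138 to between 1514 and 3645.

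The cold responses of Hmox1 differed between the genotypes by -1.85 on the log2 scale (standard error 0.54, unadjusted p = 0.00565), and this interaction did not pass the adjustment over all genes (adjusted p = 1.00 by edgeR). Txnrd1 had an interaction of 0.31 (standard error 0.14, unadjusted p = 0.0468, adjusted p = 1.00). For the other 8 genes the unadjusted p of the interaction was 0.461 or more. Over all genes, 0.0% passed the adjusted limit for the interaction and 2.14% had an unadjusted p under 0.05, against 0 and 2 of the 10 genes. DESeq2 and voom called 0 of the 10 as well. The interaction of Hmox1 stayed between -2.39 and -1.35 when each library was left out in turn.

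Hmox1 is a gene of macrophages, which take up red blood cells and dying cells, as well as of stressed adipocytes. In bulk tissue, fewer cells of a type and less RNA per cell cannot be told apart. The 12 macrophage markers summed to 1771 to 3077 CPM in TN WT, 2857 to 3061 in TN AKO, 1492 to 2945 in cold WT and 1666 to 1904 in cold AKO. None of the 12 was called in WT upon cold by edgeR, nor had an unadjusted p under 0.05. In AKO, 3 of the 12 were lower, against 11.5% of all genes, and the median over the 12 was -0.67 on the log2 scale. Per 1000 CPM of these markers, Hmox1 was at 30.2, 39.3 and 33.5 CPM in cold AKO and 36.5, 51.6 and 63.7 CPM in cold WT, which overlap. At TN it was at 81.9, 38.3 and 39.5 CPM in AKO and 41.3, 20.1 and 26.7 CPM in WT, which overlap too. The cold and TN values of this ratio also overlap within AKO and within WT. Over the 12 libraries, the Pearson r of Hmox1 with the macrophage sum was 0.62. The part of macrophage RNA in the Hmox1 result was not tested.

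Slc40a1 (ferroportin, the iron exporter through which macrophages release iron from heme) was among the 5 genes whose log2 CPM was most like that of Hmox1 over the 12 libraries, with a Pearson r of 0.83 among 11652 genes compared. The other 4 were Fbxo33 (0.85), Trim14 (0.85), Brd2 (0.80) and Neu1 (0.80), and the points share the libraries and their composition. Slc40a1 was at 127, 45.7 and 63.9 CPM in TN AKO, 54.9, 32.4 and 15.7 in TN WT, 39.0, 53.3 and 23.2 in cold WT and 32.6, 23.9 and 44.3 in cold AKO, and its highest value came from the library that was also highest for Hmox1. Its log2 fold change upon cold was -1.23 in AKO (standard error 0.49, adjusted p = 0.0802) and 0.16 in WT (standard error 0.48, adjusted p = 0.822) by edgeR. The erythroid markers that were counted summed to 86.7 to 104 CPM in TN WT, 147 to 333 in TN AKO, 296 to 741 in cold WT and 286 to 454 in cold AKO, while Hba-a1 and Hba-a2 were at 0 in every library. Most of each sum came from Beta-s, a beta-globin gene. EdgeR called 3 of the 3 erythroid genes tested higher upon cold in WT and 0 in AKO, against 15.6% of all genes in each. Between AKO and WT at TN, 3 of the 3 had an unadjusted p under 0.05, against 2.91% of all genes. The interaction also had 3 of 3, against 2.14%. Their medians were 1.35 at TN and -1.86 for the interaction, and 0 passed the adjusted limit. The part of the erythroid markers in the Hmox1 result was not tested.

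**Figure D3:**
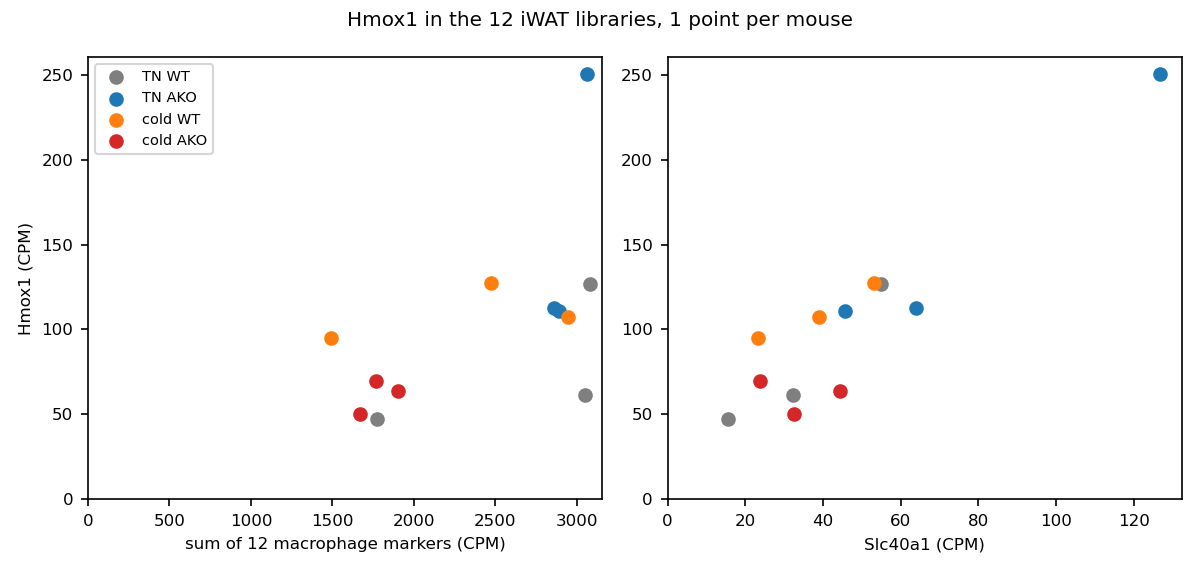
Hmox1 CPM (vertical axes) against the sum of 12 macrophage markers (left, CPM) and against Slc40a1 (right, CPM), with 1 point per mouse and all axes from 0. TN AKO replicate 1 stood apart on both sides, at 251 CPM of Hmox1 and 127 CPM of Slc40a1, and the cold AKO points lay between 1666 and 1904 CPM of macrophage markers.

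The genotypes were then compared at each temperature. Between cold AKO and cold WT, 0 of the 10 genes passed the adjusted limit by edgeR, as did 0.00653% of all genes, and 2 of the 10 had an unadjusted p under 0.05, against 2.95% of all genes. Hmox1 was at 61.2 ± 9.86 CPM (SD, n = 3) in cold AKO against 110.0 ± 16.4 CPM (SD, n = 3) in cold WT, with a log2 difference of -0.85 (standard error 0.38, unadjusted p = 0.0491, adjusted p = 1.00). Txnrd1 was at 148 ± 6.28 CPM (SD, n = 3) against 126 ± 11.7 CPM (SD, n = 3), a log2 difference of 0.23 (standard error 0.10, unadjusted p = 0.0377, adjusted p = 1.00). For 3 of the 10 genes the groups did not overlap (Hmox1 and Nqo1 below, Txnrd1 above), against 7.53% of all genes. DESeq2 on the 6 cold libraries alone called Hmox1 (log2 difference -0.84, adjusted p = 0.00897), as it did 0.069% of the 18839 genes with an unadjusted p. DESeq2 on all 12 libraries and voom called 0 of the 10.

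The differences of the other genes in the cold were 0.38 for Sod2 (standard error 0.30, unadjusted p = 0.231), 0.09 for Sod3, 0.02 for Sod1, 0.01 for Mt1, -0.09 for Gclc, -0.14 for Gclm, -0.34 for Mt2 and -0.44 for Nqo1 (standard error 0.27, unadjusted p = 0.138). The standard errors of these differences reached 0.39 for Mt2, so that they do not show equal levels. The median over the 10 genes was -0.04, against -0.02 over all genes tested.

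At TN, 0 of the 10 genes passed the adjusted limit by edgeR, as did 0.00653% of all genes, and 1 had an unadjusted p under 0.05, against 2.91% of all genes. This was Hmox1, at 158 ± 80.1 CPM (SD, n = 3) in AKO and 78.6 ± 42.6 CPM (SD, n = 3) in WT, with a log2 difference of 1.01 (standard error 0.38, unadjusted p = 0.0233, adjusted p = 0.999). The difference was 0.51 without TN AKO replicate 1 and 1.54 without TN WT replicate 1, and 0 of the 10 genes had groups that did not overlap, against 7.69% of all genes. DESeq2 and voom called 0 of the 10. The other 9 differences ran from -0.27 for Nqo1 to 0.14 for Sod2, with unadjusted p of 0.156 or more.

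Over the 12 libraries, the Pearson r of log2 CPM was 0.97 between Sod2 and Sod3, 0.96 between Sod2 and Txnrd1 and 0.95 between Sod1 and each of Sod2 and Sod3. It was 0.36 between Mt1 and Mt2, and -0.36 between Gclc and Gclm. The points of these correlations share the temperature groups and the composition of the libraries.

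The 6 white adipocyte markers summed to 4296 to 11548 CPM in the TN libraries and 14195 to 27540 CPM in the cold libraries, and 2 of the 6 were called higher in WT and 1 in AKO. Progenitor markers summed to 3828 to 5401 CPM at TN and 2209 to 3236 CPM upon cold, with 2 of 6 lower in WT and 4 of 6 lower in AKO. Over the 12 libraries, the Pearson r with the white adipocyte sum was 0.98 for Sod1, 0.97 for Sod3, 0.95 for Sod2, 0.91 for Gclm, 0.90 for Mt1 and 0.85 for Txnrd1, whereas it was -0.27 for Hmox1 and 0.08 for Mt2. Sums of lymphocyte, mural and endothelial markers also correlated with some of these genes. With the genotypes pooled, their TN and cold ranges overlapped. Within WT, lymphocyte sums did not overlap (1119 to 1724 CPM at TN, 614 to 1073 upon cold), while mural and endothelial sums did. Within AKO, lymphocyte sums did not overlap either (1051 to 1752 CPM at TN, 614 to 928 upon cold). Nor did mural (346 to 502, 562 to 592) and endothelial sums (775 to 886, 952 to 1050) in AKO. Lymphocyte markers summed to 1051 to 1752 CPM at TN and 614 to 1073 CPM upon cold (1 of 9 lower in WT, 2 in AKO), and their r was -0.96 with Sod3 and -0.93 with Gclm. Mural markers summed to 342 to 531 CPM at TN and 489 to 592 CPM upon cold (0 of 5 called by edgeR, with 1 of 5 in WT and 0 in AKO at an unadjusted p under 0.05), with an r of 0.90 for Sod1 and 0.91 for Sod3. Endothelial markers summed to 753 to 962 CPM at TN and 909 to 1050 CPM upon cold (0 of 6 called in WT, 1 higher in AKO), with an r of 0.85 for both. Txnrd1 had an r of -0.88 with the progenitor sum. The counts of called markers are to be read against all genes, of which 15.6% were called higher and 5.68% lower in WT. In AKO, these shares were 15.6% and 11.5%. The part of the cell makeup in these changes was not tested.

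The genes that work with these enzymes were examined by list. Of 110 such genes tested, edgeR, DESeq2 and voom called 0 between the genotypes at either temperature and 0 in the interaction. At an unadjusted p under 0.05, edgeR passed 0 of the 110 in the cold, 3 at TN and 1 for the interaction, against 2.95%, 2.91% and 2.14% of all genes. The counts upon cold below are to be read against the 15.6% higher and 5.68% lower of all genes in WT, and the 15.6% and 11.5% in AKO. Of 13 genes for catalase, peroxiredoxins, glutathione peroxidases and the copper chaperone of SOD1 (Ccs), 9 rose in WT upon cold and 0 fell, and 5 rose in AKO and 0 fell, with medians of 0.69 and 0.74 on the log2 scale. Catalase (Cat) rose in WT from 510.3 ± 151 to 1570.3 ± 871 CPM (SD, n = 3), by 1.62 (adjusted p = 0.0123 by edgeR). Prdx3, the peroxiredoxin of the mitochondrial matrix, rose by 1.6 (adjusted p = 0.00358) in WT and 1.43 (adjusted p = 0.00513) in AKO. The change of Cat in AKO was 0.91 (adjusted p = 0.0795). Prdx5 rose by 0.92 in WT and 0.94 in AKO. Gpx8 rose by 1.15 in WT, with 0.93 in AKO (adjusted p = 0.0599), and Prdx6 rose by 0.82 in AKO, with 0.61 in WT (adjusted p = 0.10). Ccs, which does not itself remove peroxide, rose by 0.53 in WT and 0.58 in AKO.

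A list of 14 other genes held thioredoxins and enzymes that work with them, glutaredoxins and sestrins. Of these, 8 rose and 1 fell in WT, and 8 rose and 2 fell in AKO. Srxn1, the sulfiredoxin that repairs overoxidised peroxiredoxins, rose by 1.41 (adjusted p = 0.00204) in WT and 1.51 (adjusted p = 0.000947) in AKO by edgeR. The mitochondrial thioredoxin Txn2 rose by 1.15 and 1.30 and the mitochondrial glutaredoxin Glrx5 by 1.32 and 1.30. Sesn3, a sestrin, fell by 0.64 and 0.89, and Sesn1 fell by 0.53 in AKO, with -0.20 in WT (adjusted p = 0.371).

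Of the 21 other glutathione genes, 7 rose and 0 fell in WT, and 3 rose and 0 fell in AKO, with medians of 0.45 and 0.31. The count in AKO was near the share of all genes called higher, 15.6%. Gss, the synthetase of the last step of glutathione synthesis, rose by 1.37 (adjusted p = 0.0118) in WT and 1.39 (adjusted p = 0.00970) in AKO by edgeR. The glutathione transferases Gsta4 and Gsto1 rose by 1.65 and 1.32 in WT and by 1.25 and 0.95 in AKO.

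Of the 22 genes of heme and iron handling other than Hmox1, 12 rose and 0 fell in WT, and 10 rose and 1 fell in AKO. Alas1, the first enzyme of heme synthesis, rose from 135 ± 41.9 to 534 ± 225 CPM (SD, n = 3) in WT, by 1.98 (adjusted p = 0.00223 by edgeR), and by 1.86 (adjusted p = 0.00210) in AKO. Urod rose by 0.93 in WT and 0.87 in AKO, Alad by 0.94 and 0.82, and the transferrin receptor gene Tfrc by 0.79 and 0.99. Ppox fell by 0.24 in AKO, with -0.18 in WT (adjusted p = 0.0938). Hmox2, the constitutive heme oxygenase, rose by 0.40 in WT and 0.38 in AKO.

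Of the 18 other NRF2 targets, 6 rose and 0 fell in WT, and 3 rose and 1 fell in AKO, where the shares of all genes called were 15.6% higher and 11.5% lower. G6pdx, which makes NADPH, rose by 1.49 in WT and 1.15 in AKO, Trib3 by 1.11 and 0.77, and Taldo1 by 0.95 and 0.93. Ces1d rose by 1.46 in WT, with 1.00 in AKO (adjusted p = 0.0628), and Ephx1 fell by 0.38 in AKO, with -0.24 in WT (adjusted p = 0.0798). Of the 8 regulators, Nfe2l1 rose by 0.97 (adjusted p = 0.00555) in WT and 0.93 (adjusted p = 0.00571) in AKO by edgeR, and Nfe2l2 and Keap1 rose by 0.40 and 0.35 in WT. In AKO, Nfe2l2 had a change of 0.17 and Keap1 of 0.19, short of the limit. The changes of Bach1, Mtf1, Maff, Mafg and Mafk lay between -0.32 and 0.39 and did not pass it in either genotype.

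Of the 14 other metallothionein and zinc transport genes that were tested, 1 rose and 0 fell in WT, and 1 rose and 2 fell in AKO, with medians of 0.05 and 0.07. Slc30a9 rose by 0.60 in WT and 0.70 in AKO. The zinc exporter Slc30a1, an MTF1 target like the metallothioneins, fell by 0.42 in AKO, as did Slc30a7, by 0.32. Their changes in WT were -0.15 (adjusted p = 0.265) and -0.28 (adjusted p = 0.0712). Mt4 was at 0 in all 12 libraries.

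**Figure D4:**
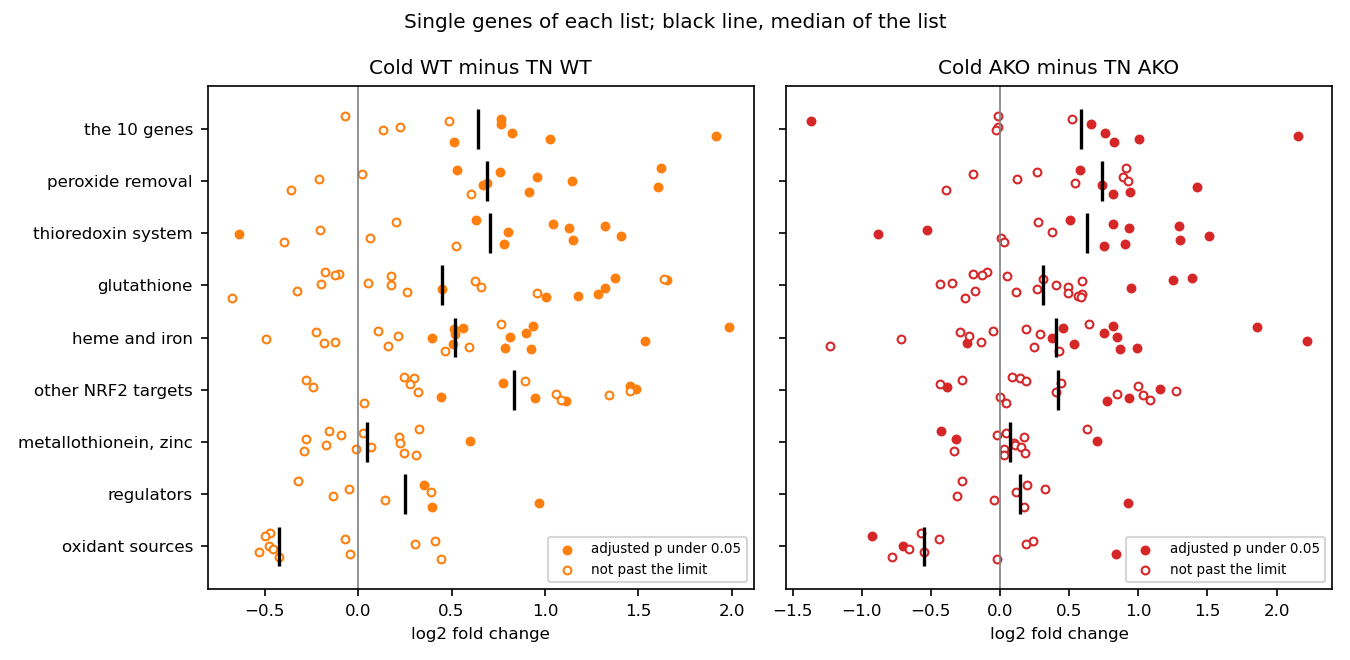
Log2 fold change upon cold (horizontal axes) of each gene of each list, in WT on the left and AKO on the right, with filled points for an adjusted p under 0.05 by edgeR and a black line at the median of the list. The medians of the 10 genes stood at 0.64 and 0.59, and those of the metallothionein and zinc genes at 0.05 and 0.07.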

How the data were processed

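Total RNA of iWAT from 12 mice was sequenced by the authors, who trimmed reads with Trim Galore 0.4.4, aligned them with STAR 2.6.1d to GRCm38 and counted reads per gene with HTSeq 0.13.5, per the labels. The deposited values are raw read counts per gene, without normalization. The annotation and the strand setting are not given in the sources used here. Reads that the files list as outside genes (21.9% to 27.0%) were left out.

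A single edgeR 4.0.16 quasi-likelihood model of the 4 groups was fitted in R 4.3.3 after TMM scaling to the 15306 genes that passed filterByExpr (minimum count 10, minimum total 15). Contrasts were called at a Benjamini-Hochberg adjusted p under 0.05 over all genes tested. Standard errors were taken from the fold change and its F value. Alternatives were other scalings, no filter, DESeq2 1.42.0, limma 3.58.1 voom with sample quality weights, fits of fewer groups, a replicate block, looser thresholds and each library left out. The processing was tested on simulated data. The precision is limited by 3 mice per group, each taken as a separate animal.

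The 10 genes, lists and cell markers were chosen with earlier results of these data known. Named were the 10 genes, the regulators, up to 3 genes higher and 3 lower per list and temperature comparison (mean CPM of at least 5, largest change), and the 5 genes most like Hmox1 and the metallothioneins in pattern. Hmox2 and Slc40a1's contrasts were added after their values were seen. Positions came from GENCODE M21 on GRCm38 and promoters from RefSeq on GRCm38.p6, and Hmox1, Sod3 and Gclc were not matched in the promoter table used here.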

Additional observations from a re-analysis of the deposited data

Results flagged for a closer look

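The cold response of Hmox1 in libraries labelled HIF2α AKO minus that in WT was -1.85 on the log2 scale (edgeR, unadjusted p = 0.00565, adjusted p = 1.00), so that a test of the difference between genotypes passed before and not after the adjustment over all genes. Hmox1 was lower in each cold AKO library than in each TN AKO library, while the WT groups overlapped. The cold response of Txnrd1 in AKO minus that in WT was 0.31 (unadjusted p = 0.0468, adjusted p = 1.00). Over all genes tested, 2.14% had an interaction with an unadjusted p under 0.05.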

How the results depend on the processing

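Sod2 was called higher upon cold in both genotypes under every alternative, and Txnrd1 under every alternative but library sizes in WT. The count of the 10 genes called higher upon cold was 2 to 6 in WT and 2 to 5 in AKO when each library was left out, and the count called lower in AKO was 0 to 1. In WT, 3 genes were called higher and 1 lower (Gclc) with library sizes only, a scaling under which 24.3% of all calls were of higher genes, against 73.3% with TMM, and 23.8% against 57.5% in AKO. In WT, 2 were called higher in a fit of only the groups compared, which called 6 in AKO (Gclm gained). Without both libraries with muscle transcripts, a setting chosen after seeing the data, 2 genes were called higher and 0 lower in AKO. Between genotypes, DESeq2 on the 6 cold libraries called 1 gene, and edgeR at an unadjusted p under 0.15 with a log2 difference above 0.2 passed 3 in the cold and 1 at TN, against 8.98% and 8.63% of all genes. The study set these limits for DESeq2 in the cold. For the counts that moved, the cause was not tested.

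The replicate block left 5 genes called higher in WT (Gclm lost, 0.74) and 4 in AKO (Mt1 lost, 0.65). Of 18 same-numbered pairs of libraries, 5 correlated above 0.1 (range -0.43 to 0.39), and pairs of unlike number were not compared. This check therefore cannot decide whether the numbers pair the mice.

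Signs turned only in genes that did not pass the test in that comparison. In WT, Mt2 was at -0.070 and Nqo1 at -0.17 with library sizes, and Gclc at 0.014 with voom. In AKO, Mt2 was at 0.0043 with DESeq2 size factors, 0.0040 without the filter, 0.12 with voom, 0.0045 with DESeq2, 0.0027 with only the groups compared and 0.17 without both muscle libraries, where Nqo1 was at 0.025. Gclc in AKO was at 0.0042 with DESeq2 size factors, 0.0019 without the filter, 0.0048 with DESeq2 and 0.00070 with only the groups compared. With each library left out, Mt2 ran from -0.43 to 0.50 in WT and -0.37 to 0.17 in AKO, Nqo1 from -0.17 to 0.43 and -0.16 to 0.058, and Gclc in AKO from -0.077 to 0.072. Depth limits Nqo1 most, which was counted 81 to 195 times per library.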

Other observations

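Outside the antioxidant genes, lists of genes that share signals with them were counted. Of 14 hypoxia genes, 4 rose and 0 fell in WT upon cold, and 5 rose and 0 fell in AKO, by edgeR (quasi-likelihood test, Benjamini-Hochberg adjusted). Pfkfb3, which drives glycolysis, rose by 1.62 in WT (adjusted p = 0.00546) and 1.13 in AKO (adjusted p = 0.0220), and Egln3, a prolyl hydroxylase that acts on HIFα, rose by 1.32 and 0.80. Vegfa rose by 0.85 in WT and 0.87 in AKO, and Egln1 by 0.83 and 1.20. Ldha rose by 1.01 in AKO, with 0.88 in WT (adjusted p = 0.0766). Over all genes, 15.6% were called higher in each genotype. Of 8 genes of glucocorticoid response and handling, which include the receptor gene Nr3c1 and Hsd11b1, 3 rose in WT and 1 in AKO. Between AKO and WT at TN, 4 of the 8 had an unadjusted p under 0.05 by edgeR, against 2.91% of all genes. Their median log2 difference at TN was 0.48. For the interaction it was 2 of the 8, against 2.14%. None of the 8 passed the adjusted limit in either. Klf9 rose from 47.0 ± 6.63 to 123 ± 25.4 CPM (SD, n = 3) in WT, by 1.39 (adjusted p = 0.00252), and by 0.83 in AKO (adjusted p = 0.0214). Tsc22d3 and Sgk1 rose by 0.74 and 0.60 in WT, and their changes in AKO were -0.08 (adjusted p = 0.789) and 0.42 (adjusted p = 0.0824).

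Of 11 genes for enzymes that make superoxide, peroxide or nitric oxide, 0 were called in WT by edgeR, with 3 at an unadjusted p under 0.05, 0 by DESeq2 and 2 by voom. In AKO, 1 rose and 2 fell, where 15.6% of all genes were called higher and 11.5% lower. Nos2, the inducible nitric oxide synthase, rose by 0.84 (adjusted p = 0.00960), and Cybb and Ncf1, subunits of the phagocyte NADPH oxidase, fell by 0.92 (adjusted p = 0.0298) and 0.70 (adjusted p = 0.0346). In WT, these 3 changes were -0.04 (adjusted p = 0.873), -0.50 (adjusted p = 0.189) and -0.48 (adjusted p = 0.124). In the same comparison 3 of 12 macrophage markers were lower, against 11.5% of all genes, and their part in the result was not tested.

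The 5 genes whose log2 CPM over the 12 libraries was most like the mean of Mt1 and Mt2 were Rab11b (Pearson r 0.88), Tm9sf1 (0.87), Il22ra2 (0.87), Rabac1 (0.85) and D230025D16Rik (0.85), given as a description among 11652 genes compared.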
